A study of Homo sapiens with 4 samples.

Results

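Connexins are the proteins of gap junctions, and 9 of their genes were followed here in OVCAR-3, an established line of human ovarian carcinoma cells: GJA1, GJA3, GJA4, GJA5, GJB1, GJB2, GJB5, GJC1 and GJD3. They were found as the rows of the value table to which the array's annotation gives one of these symbols and no other, and each had 1 such row (a transcript cluster, the set of probes that stands for a gene), 9 of the 18417 genes with a cluster of their own. GJA1 was chosen by its measured difference between the groups, as one of the largest falls in the comparison below, and the family was assembled around it, so the values of these 9 genes are a description and carry no test. Of the other 12 human connexin genes, 6 were measured on clusters of their own and could be tested.

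Connexin proteins assemble in the membrane into a ring, the connexon, and connexons of neighbouring cells dock into a channel that passes ions and small molecules. Cx43, the product of GJA1, is the most widely expressed connexin, and ovarian surface epithelium and granulosa cells are known to make it. Its long cytoplasmic tail binds scaffold proteins and is phosphorylated by several kinases, and the protein turns over quickly.

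The study compared OVCAR-3 cells transfected with a vector lacking an H1.3 insert (2 arrays) with OVCAR-3 cells labelled as overexpressing human H1.3, a linker histone that binds DNA between nucleosomes (2 arrays). Its stated aim was to find transcript changes caused by H1.3 overexpression. The titles of the second group carry an "(H)" that the labels do not explain. The labels call the replicates biological without saying whether they were separate transfections, clones or cultures, so each p-value reflects only how far these arrays scatter, and that scatter may be technical. All 4 arrays come from cells of one line in the same growth medium, and the labels name neither the vector's promoter nor whether clones or a pool were used.

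The gene that encodes H1.3 was lower, not higher, on average in the group labelled for it. H1-3 measured 8.65 and 7.88 in vector only against 7.47 and 7.69, differing by -0.685 ± 0.24 (SE). It did not pass, with an adjusted limma p of 0.319. Each direction below is that of the arrays as labelled. No source used here says whether its probes lie in the transfected sequence. Of 12 ovarian epithelial carcinoma markers, 11 had a mean log2 level at or above 6.84, the median over all clusters with a symbol. The same held for 0 of 8 endothelial, 1 of 10 fibroblast and smooth muscle and 0 of 7 leukocyte markers, and the summed linear RMA levels of these lists were 390 to 416, 498 to 548 and 305 to 351 over the 4 arrays. Levels of different genes come from different probes, so these counts and sums do not show which cell types are present. The 12 housekeeping genes had a median difference of -0.14. No gene of these last 4 lists passed in limma, with 0, 0, 0 and 3 at an unadjusted p under 0.05, as had 11.5% of all clusters. The members of smallest p were KDR and ERG (-0.375 and -0.185), PDGFRB and FAP (0.23 and -0.425), PTPRC and CD14 (0.23 and 0.10), and PPIA and GUSB (-0.375 and -0.35).

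The promoter of the gene on which the comparison turns is shown beside that of GJB2, a member with a different promoter composition. Both are the 250 bases before the RefSeq start, 5′ to 3′ on the strand of the gene, in build GRCh38.p14. Capitals mark matches to the AP-1 motif (TGACTCA or TGAGTCA, which are each other's reverse complements) and to the GC box bound by SP1 (GGGCGG, or CCGCCC on the other strand). The GJA1 window is chr6:121435396-121435645 on the plus strand, and the GJB2 window is chr13:20192939-20193188 on the minus strand.
GJA1: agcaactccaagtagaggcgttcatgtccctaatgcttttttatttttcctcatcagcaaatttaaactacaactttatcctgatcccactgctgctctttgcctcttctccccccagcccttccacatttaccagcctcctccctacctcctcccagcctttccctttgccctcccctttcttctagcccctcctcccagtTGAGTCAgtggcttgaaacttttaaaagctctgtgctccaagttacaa
GJB2: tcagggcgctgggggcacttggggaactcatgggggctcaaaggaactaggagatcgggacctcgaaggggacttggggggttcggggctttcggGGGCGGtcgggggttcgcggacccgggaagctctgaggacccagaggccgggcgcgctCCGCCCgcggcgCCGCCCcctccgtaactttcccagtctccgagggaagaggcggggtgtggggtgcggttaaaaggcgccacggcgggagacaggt

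The GJA1 window held 1 AP-1 match, whose first base lies at position -48, counted back from the base just before the start, and no GC box. An AP-1 match was present in 4.2% and a GC box in 42.6% of the 35116 promoter windows of the RefSeq table. Neither printed window held both motifs. The GJB2 window held 3 GC boxes and no AP-1 match. GJA1 had 1 CpG dinucleotide in its window, GJB1 had 2, and the 2 windows of GJA5 had 3 and 0. GJB2 had 25 and GJA3 had 33, against a median of 11 over all windows. GJA4, GJB5, GJC1 and GJD3 had no window. Among the 5 followed connexins with a window, the low-CpG windows thus belonged to GJA1, GJB1 and GJA5. The differences of these genes between the groups were -1.89, -0.015 and 0.195 (H1.3 minus vector only, log2). Low CpG was not particular to them. Of the connexins not followed, GJA10 and GJC3 had 0, GJB6 had 1 and GJD4 had 3, while GJD2 had 31. Over all windows, 14.7% had at most 1 CpG and 29.3% at most 3. A match is a stretch of letters and was not measured as a binding site.

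GJA1 was the connexin that differed most between the groups. Its log2 level was 7.83 and 7.08 on the vector-only arrays and 5.32 and 5.81 on the arrays labelled H1.3. Both H1.3 arrays lay below both vector-only arrays, and the gap between the groups was wider than the gap between replicates in either group, which was 0.75 for vector only and 0.49 for H1.3. The mean went from 7.455 ± 0.53 to 5.565 ± 0.35 (SD, n = 2 each). The groups thus differed by -1.89 on the log2 scale, with H1.3 3.71-fold lower. Taken array by array, H1.3 replicate 1 differed by -2.51 from vector-only replicate 1 and by -1.76 from vector-only replicate 2, while H1.3 replicate 2 differed by -2.02 and -1.27. Of the 21214 clusters with a gene symbol, 10 had a difference as low as this or lower, GJA1 included. The replicates of GJA1 were also farther apart than those of most clusters: 1.44% of clusters had a gap at least as wide between the vector-only arrays and 4.28% between the H1.3 arrays. These are arrays of bulk RNA, in which fewer GJA1-expressing cells and less GJA1 RNA per cell cannot be told apart. RefSeq lists a pseudogene copy, GJA1P1, and no source used here says whether the GJA1 probes tell the copies apart.

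The plot of connexin levels by array shows GJA1 as the gene whose groups stand far apart.

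**Figure D1:**
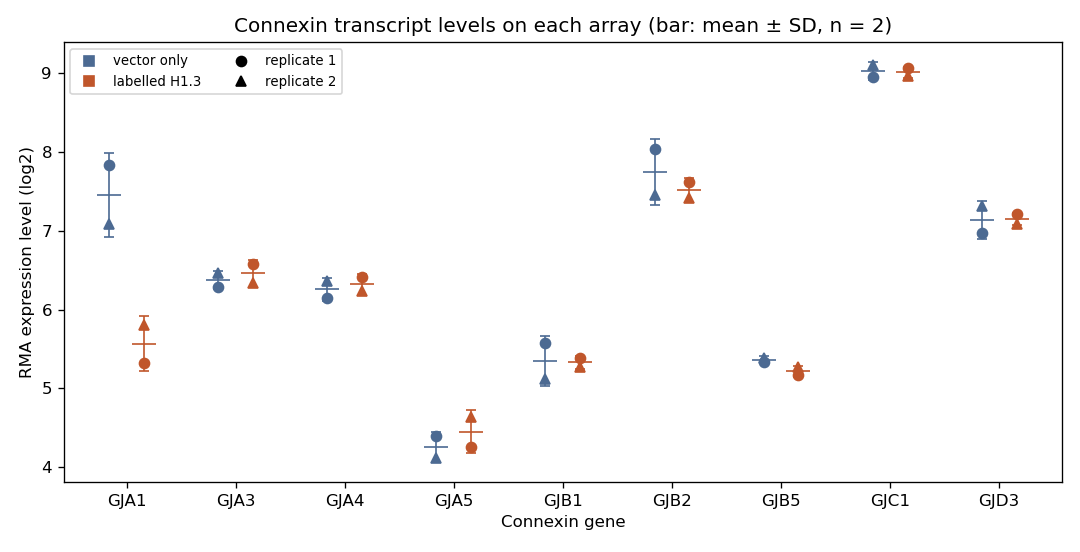
RMA expression level (log2) of the 9 connexin genes on each of the 4 arrays; blue is vector only, orange is labelled H1.3, circles are replicate 1, triangles replicate 2, and the horizontal marks with error bars are the mean ± SD of 2 arrays. GJA1 lies at 7.83 and 7.08 against 5.32 and 5.81, while the groups of GJB5 are apart by 0.145 on average and those of the other 7 genes overlap.

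The other 8 connexins had differences from -0.23 to 0.195, with a median of -0.002, against a median of 0.015 over all 21214 clusters. Of the 8, 4 were negative and 4 positive, and 5 were smaller than 0.1 in size, as were 42.8% of all clusters. The difference of GJA1 minus that of GJB2, the next lowest of the 9, was -1.66. Set against its own mean over the 4 arrays, GJA1 stood at 1.32 and 0.57 on the vector-only arrays and at -1.19 and -0.70 on the H1.3 arrays. The median of the other 8, centred in the same way, stood at -0.015 and 0.058 on the vector-only arrays and at 0.047 and -0.057 on the H1.3 arrays. The groups did not overlap for 2 of the 9 genes, GJA1 and GJB5, both lower in H1.3. Over all clusters, 40.6% had groups that did not overlap, 21.2% higher and 19.4% lower, and nothing is read from the count since this contrast chose the genes.

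Among the alpha connexins, GJA3 encodes a lens fibre connexin. Its level was 6.29 and 6.46 in vector only and 6.58 and 6.34 in H1.3. GJA4, a connexin of arterial endothelium and of oocytes, measured 6.15 and 6.36 against 6.41 and 6.23. For both genes the 2 groups overlapped, with vector-only replicate 1 the lowest and H1.3 replicate 1 the highest of the 4 arrays. GJA5, a connexin of the atrium and of arterial endothelium, measured 4.39 and 4.12 against 4.26 and 4.64. Its difference of 0.195 was the highest of the 9, and vector-only replicate 1 still lay above H1.3 replicate 1. All 8 endothelial markers of a fixed list (PECAM1, VWF, CDH5 and KDR among them) had a mean level below 6.84, the median cluster, and the median difference of that list was 0.01. Since levels of different genes come from different probes, this does not show whether endothelial cells are present. GJA3, GJA4 and GJA5 also had mean levels below 6.84, where RMA values are known to understate changes. The same holds for GJA1, whose mean over the 4 arrays lay below 6.84 and whose H1.3 arrays were at 5.32 and 5.81, so its fold is that of the RMA values.

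Among the beta connexins, GJB2 (Cx26) is made by many epithelia and is the gene most often mutated in inherited deafness. Its level was 8.04 and 7.45 in vector only and 7.62 and 7.41 in H1.3, so the groups overlapped, and the mean difference was -0.23. It rests on vector-only replicate 1: without that array the difference was 0.065, and without vector-only replicate 2 it was -0.525. GJB1 (Cx32), the connexin of hepatocytes and myelinating Schwann cells, measured 5.57 and 5.12 against 5.39 and 5.27. The H1.3 arrays lay between the vector-only arrays, and the mean difference was -0.015. GJB5, an epidermal and placental connexin, measured 5.34 and 5.39 against 5.17 and 5.27. Its groups did not overlap, with a mean difference of -0.145 and single array pairs from -0.22 to -0.07. Its level was below the median cluster on every array.

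The gamma connexin GJC1 (Cx45), found in the cardiac conduction system and smooth muscle, had values of 8.95 and 9.10 in vector only and 9.06 and 8.96 in H1.3. Its difference was -0.015, and no H1.3 array differed from a vector-only array by more than 0.14. The delta connexin GJD3 measured 6.97 and 7.31 against 7.21 and 7.09. The H1.3 arrays lay between the vector-only arrays, and the means differed by 0.01. GJC1, GJB2 and GJD3 were the 3 members whose mean over the arrays was at or above the median cluster. Levels of different genes come from different probes and cannot be ranked against each other.

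Outside the 9 genes, 6 connexins were measured on clusters of their own, and 0 of them passed limma at an adjusted p under 0.05, with 1 at an unadjusted p under 0.05. Over all clusters, 0.504% passed the adjusted threshold, 0.24% higher and 0.264% lower, and 11.5% had an unadjusted p under 0.05. Their median difference was 0.04, with 4 positive and 2 negative. The 1 was GJB6 (Cx30), a cochlear and epidermal connexin that neighbours GJB2. It measured 6.98 and 6.44 in vector only and 6.16 and 6.31 in H1.3, so that it differed by -0.475 ± 0.19 (SE), with an adjusted limma p of 0.386. Without vector-only replicate 1 it was -0.205, and without vector-only replicate 2 it was -0.745. GJB7 measured 4.97 and 4.84 against 4.33 and 4.94, with an adjusted limma p of 0.687. GJA10, GJC3, GJD2 and GJD4 had differences of 0.095, 0.075, 0.12 and 0.005, with adjusted limma p from 0.802 to 0.991. GJD4 had a second, dimmer cluster, which differed by 0.155. GJA9 was measured only on a cluster shared with the readthrough gene GJA9-MYCBP, which differed by 0.08.

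Pannexins form single-membrane channels of similar topology that release ATP. PANX1 measured 8.62 and 8.58 in vector only and 7.90 and 7.97 in H1.3, so that it differed by -0.665 ± 0.11 (SE), with an adjusted limma p of 0.0765, short of the threshold. The 2 groups of PANX1 were apart, by at least 0.61 in every array pair. PANX2 measured 7.02 and 7.10 against 7.43 and 7.33, so that it differed by 0.32 (adjusted limma p of 0.348). PANX3, a skeletal pannexin, differed by -0.05 with an adjusted limma p of 0.946.

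**Figure D2:**
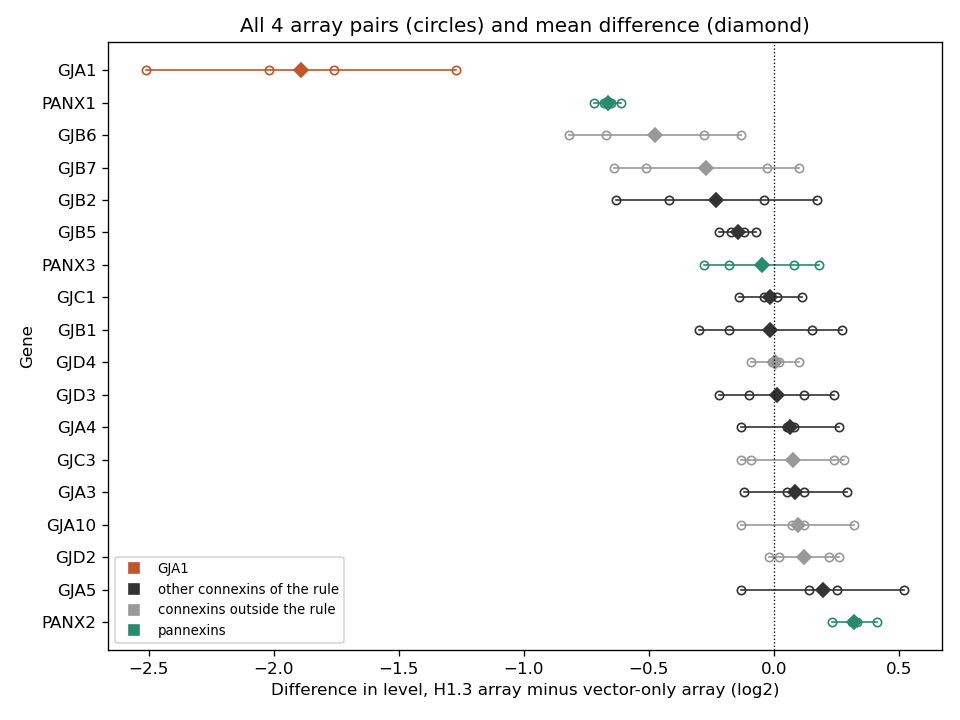
Difference in log2 level for each connexin and pannexin, with circles for each of the 4 pairs of an H1.3 array minus a vector-only array and a diamond for the mean; orange is GJA1, black the other 8 connexins, grey the connexins outside the 9 genes and green the pannexins. GJA1 runs from -2.51 to -1.27, PANX1 from -0.72 to -0.61 and GJB6 from -0.82 to -0.13.

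Genes next to GJA1 on chromosome 6 had differences centred near 0. For each gene, the 15 nearest genes on either side in RefSeq order (where present) with a mean level of at least 6.84 were taken, a step chosen after earlier results were known. Of the 30 neighbours of GJA1, from FYN to MED23, 17 were lower and 13 higher, with a median difference of -0.03. The nearest, TBC1D32 and SERINC1, differed by -0.06 and 0.095. The lowest neighbour was ECHDC1 at -0.72, and the highest was HEY2, a Notch target gene, at 1.34. GJA5 lay among genes that were mostly higher, 24 of 30, with a median of 0.25. That window holds TXNIP, at 3.41. PANX1, on chromosome 11, lay among 30 genes of which 29 were lower, with a median of -0.63 close to its own -0.665. The neighbours of PANX2 had a median of 0.21, and those of PANX3 had a median of -0.51. The neighbour medians of the other 7 connexins among the 9 lay between -0.09 and 0.05. Their part in the differences was not tested.

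**Figure D3:**
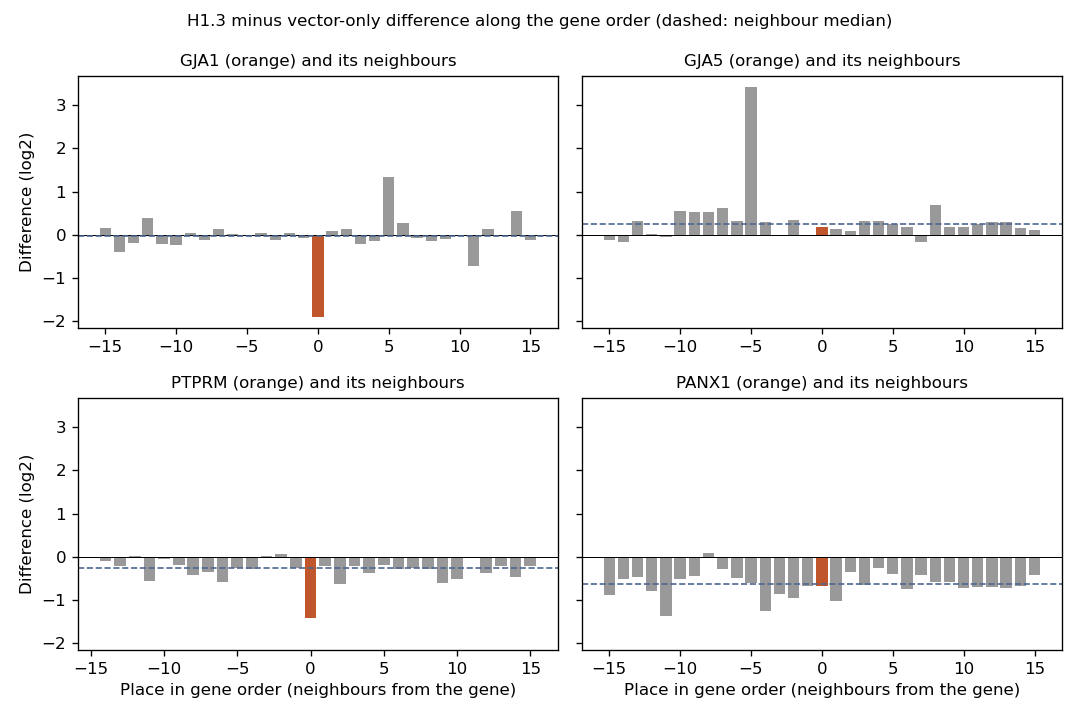
Difference in log2 level (H1.3 minus vector only) of GJA1, GJA5, PTPRM and PANX1, in orange, and of up to 15 neighbours on either side in gene order, in grey; the dashed line is the median of the neighbours. GJA1 stands at -1.89 among neighbours with a median of -0.03, whereas PANX1 at -0.665 lies among neighbours with a median of -0.63.

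Among the genes for proteins that bind Cx43, PTPRM fell. It encodes a receptor tyrosine phosphatase that mediates cell-cell adhesion and has been found in a complex with Cx43. It measured 6.72 and 6.76 in vector only and 5.28 and 5.35 in H1.3, so both H1.3 arrays lay far below both vector-only arrays. It fell by 1.425 ± 0.11 (SE), with an adjusted limma p of 0.00956. Of the 16 partner genes measured, it was the 1 that passed, against 0.504% of all clusters, 0.264% lower. At an unadjusted limma p under 0.05 there were 3 of the 16, against 11.5% of all clusters. The list was chosen with earlier results of these data known, so nothing is read from these shares. The median difference of the list was 0.02. The call held with a robust intensity trend (adjusted limma p of 0.00295) and after a second quantile normalization (0.0115). Without the clusters below the median level PTPRM was not tested. Leaving out any 1 array gave differences from -1.46 to -1.39 and ended the call, as it did for every cluster. When the unnamed clusters were tested too, the adjusted limma p was 0.0969. With the replicate number as a block it was 0.117, and without variance moderation 0.61. Of 29 neighbours of PTPRM on chromosome 18, 25 were lower, with a median of -0.26.

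The main scaffold of Cx43, the tight junction protein gene TJP1, measured 9.22 and 9.46 against 9.46 and 9.43, so that it differed by 0.105 (adjusted limma p of 0.832). CAV1, the caveolin gene, differed by 0.455 with an adjusted limma p of 0.171. CDH2, encoding N-cadherin, differed by 0.595 with an adjusted limma p of 0.572, and its replicates were spread from 6.30 to 7.14 in vector only and from 6.90 to 7.73 in H1.3. These 3 were picked out after their values were seen.

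No kinase that phosphorylates Cx43 passed: of 14 measured, 0 were called in limma and 2 had an unadjusted p under 0.05, near the 11.5% of all clusters. The median difference was 0.06. PRKCA, protein kinase C alpha, differed by 0.545 ± 0.14 (SE) with an adjusted limma p of 0.155. MAPK3, the kinase ERK1, differed by 0.325 ± 0.13 (SE) with an adjusted limma p of 0.394. Of 16 genes for ubiquitination, endocytosis and degradation of Cx43, 0 were called, 1 had an unadjusted p under 0.05 (11.5% of all clusters), and 11 were positive, with a median of 0.12. Nothing is read from the 11, since the share of positive differences over all clusters, whose median was 0.015, is not given here. SQSTM1, an autophagy receptor gene, differed by 0.365 with an adjusted limma p of 0.274, and TRIM21, a ubiquitin ligase gene, by 0.31 with 0.447.

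Of 14 transcription factor genes reported to act on the GJA1 promoter, 0 passed in limma, 1 had an unadjusted p under 0.05 (11.5% of all clusters), and 12 were positive, with a median of 0.08. The median over all clusters was 0.015, and their share of positive differences is not given here, so nothing is read from the 12. IRF1, an interferon regulatory factor, measured 7.51 and 7.09 against 8.28 and 7.81, so that it differed by 0.745 ± 0.20 (SE), with an adjusted limma p of 0.185. SNAI2 differed by 0.22 with an adjusted limma p of 0.557. JUN and FOS, which encode subunits of AP-1, are named because of the motif in the GJA1 window. Genes of other AP-1 subunits are not reported here. JUN measured 8.97 and 8.63 against 8.76 and 8.88, FOS 7.13 and 6.46 against 6.91 and 6.85. Their groups overlapped, with differences of 0.02 and 0.085 and adjusted limma p of 0.980 and 0.932.

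The other junction types had small median differences. It was 0.03 over 10 adherens junction genes, -0.02 over 13 tight junction genes and 0.00 over 12 desmosome genes. No gene of these 3 lists passed in limma, with 1, 3 and 0 at an unadjusted p under 0.05, against 11.5% of all clusters. JUP, plakoglobin, differed by -0.34 with an adjusted limma p of 0.313, and NECTIN4 by 0.275 with 0.460. CGN, cingulin, differed by 0.335 with 0.329, and CLDN12 by 0.325 with 0.355. The desmosome gene DSP, desmoplakin, differed by -0.14 with 0.779, and PERP by 0.19 with 0.793.

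**Figure D4:**
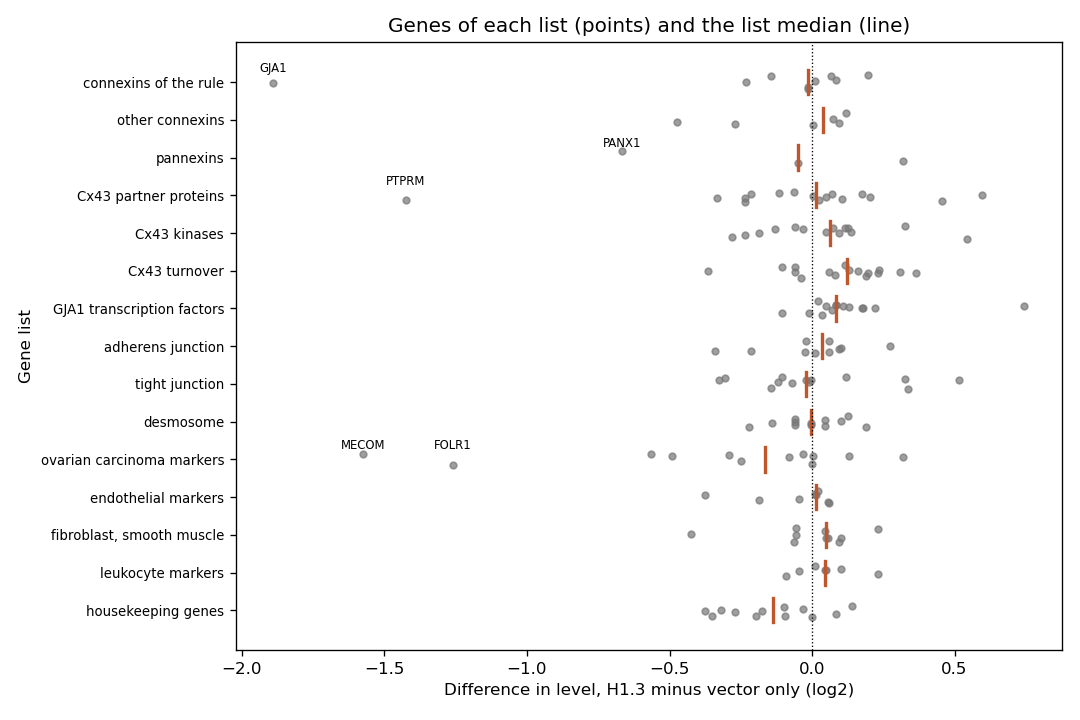
Difference in log2 level (H1.3 minus vector only) of every measured gene of each fixed list, as points, with the median of the list as an orange line. GJA1 at -1.89, PTPRM at -1.425, MECOM at -1.575 and FOLR1 at -1.26 lie far to the left, and the medians of the lists lie between -0.16 and 0.12.

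The lists beside the 9 connexins held 153 measured genes, of which 3, or 1.96%, passed, against 0.504% of all clusters. The lists were chosen with earlier results of these data known, so nothing is read from these shares. The 3 genes were PTPRM and the ovarian carcinoma markers MECOM and FOLR1, all lower. MECOM differed by -1.575 ± 0.18 and FOLR1 by -1.26 ± 0.15 (SE), with adjusted limma p of 0.0266 and 0.0291. Both calls held with a robust intensity trend (adjusted limma p of 0.00674 for MECOM and 0.0117 for FOLR1). They also held after a second quantile normalization (0.0361 for both). They ended with the replicate block (adjusted limma p of 0.164 and 0.137), with the unnamed clusters tested too (0.172 and 0.177) and without variance moderation (0.621 for both). Leaving out any 1 array ended them too, as it did for every cluster. Without the clusters below the median level, MECOM still passed and FOLR1 was not tested.

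Genes whose 4 array values, each centred on its own mean, came closest to those of GJA1 were LPAR3 (a lysophosphatidic acid receptor), SELENOP (a selenium transport protein), B3GALNT1 (a glycosyltransferase), DNAJC15 (a mitochondrial chaperone protein) and FAM221A. The root mean square difference from GJA1 was 0.208 for LPAR3 and 0.257 for FAM221A, over 4 arrays. LPAR3 measured 10.44 and 9.62 in vector only against 8.37 and 8.38 in H1.3, a difference of -1.655. Like GJA1, it was higher on vector-only replicate 1 than on vector-only replicate 2. With 4 arrays, any gene that was about as much lower in H1.3 comes close in this measure.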

How the data were processed

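Expression was measured in OVCAR-3 on 4 one-colour Affymetrix arrays, 2 per group. For 33297 transcript clusters the authors deposited log2 values; per the submitters' processing notes they used RMA and the software Affymetrix Expression Console, whose versions are not named. The series text names an exon array, while the annotation table is that of a gene array. No probe-level data were read, so background and saturation were not examined, and the number of arrays limits the precision.

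Symbols came from the platform annotation, updated through gene identifiers to RefSeq GRCh38.p14: 19460 clusters had 1 symbol, 1754 several, and 12083 were unnamed; 19429 single-symbol clusters were found in RefSeq. The cluster of highest mean stood for a gene. The test was limma 3.58.1 (R 4.3.3; lmFit then eBayes, two-sided, no covariate) over the 21214 clusters with a symbol, as H1.3 minus vector only, with Benjamini-Hochberg adjustment and a threshold of 0.05. The fit had 2 residual and 5.16 prior degrees of freedom, and the median standard error was 0.13. The limma fit was tested on simulated data with known changes.

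The connexins, the 14 other lists and the alternatives were chosen with earlier results of these data known. Genes named by rule are all measured connexins and pannexins, per list up to 4 passing genes or else the 2 of smallest p, and the 5 clusters most like GJA1. Others named include neighbours in gene order, list genes called under an alternative, and JUN and FOS for the motif in the GJA1 window. TJP1, CAV1, CDH2 and CTTN were picked after their values were seen. Of 173 genes of the other lists, 153 were measured on clusters of their own. Promoter windows came from the RefSeq table, which held 5 of the 9 genes. Alternatives changed moderation, scaling, filter, clusters tested and threshold, added the replicate number as a block, or left out each array. Figures were drawn with matplotlib 3.10.9.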

Additional observations from a re-analysis of the deposited data

How the results depend on the processing

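The GJA1 difference of -1.89 was -1.899 after a second quantile normalization. It ran from -2.265 to -1.515 when arrays were left out one at a time, and had to stay negative, since every array pair differed by -1.27 or lower. The replicate block, the shift to one median and the mean over single-symbol clusters left it at -1.89. These 3 could not change it: the design is balanced, the array medians were already alike at 6.84, and GJA1 has 1 such cluster. In all these refits the median of the other 8 connexins moved by less than its spread between replicates. Nothing is read from this. For a single gene, leaving out an array of a pair cannot move the difference farther than such a spread. The replicate block, the shift to one median and the mean over single-symbol clusters could not move the median of the 8. Without the clusters below the median level GJA1 was not tested, and GJB2, GJC1 and GJD3 were the members left, with a median of -0.015. The other settings leave the differences as they are. The median difference over all clusters, 0.015, was 0.015 with arrays at one median and 0.014 after a second quantile normalization. Against 107 clusters called in the main test, there were 245 with a robust intensity trend, 9 without moderation, 67 after a second quantile normalization, 25 without clusters below the median level, 4 with all clusters, 311 with the adjusted threshold at 0.10, and 683 when an unadjusted p below 0.05 and a 1.5-fold change were required. The list genes called, 3 in the main test, were 5 with the robust trend (EPCAM and PANX1 in addition). Without moderation 1 was called, PDGFRA. It was higher by only 0.05, at 4.40 and 4.40 against 4.45 and 4.45, where equal replicates leave no spread to test against. The list genes called were 1 without clusters below the median level (MECOM), 0 with all clusters (19 at an unadjusted limma p under 0.05) and 5 at the unadjusted threshold. When arrays were left out one at a time, both counts ran from 0 to 0, with 1292 to 2367 clusters and 10 to 22 list genes at an unadjusted limma p under 0.05; a lone array was taken to vary as the remaining pair does. The cause of these shifts was not tested. In the fit with the replicate block (the replicate number as a term), 0 clusters and 0 list genes were called in limma (2195 and 19 at an unadjusted p under 0.05); the replicate deviations of both groups had a correlation of 0.06 and no label names a batch behind the numbers, which were therefore treated as names.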

Other observations

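Some connexins differed between the vector-only replicates more than most genes. GJA1, GJB2 and GJB1 were higher on vector-only replicate 1 than on vector-only replicate 2 by 0.75, 0.59 and 0.45, and GJB6, outside the 9 genes, by 0.54. A rise of at least 0.45 in this direction was seen in 3.19% of all clusters with a symbol. The size was picked after the values were seen. GJD3, GJA4, GJA3 and GJC1 were lower on that array, by 0.34, 0.21, 0.17 and 0.15.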
